A study of Mus musculus with 12 samples.

Results

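Selenoprotein mRNAs were followed through polysome gradients of 6 mouse livers. The 10 genes Selenop, Selenok, Selenos, Selenot, Selenow, Gpx1, Gpx4, Dio1, Txnrd1 and Sephs2 were taken by name from count tables of 27179 gene IDs, and all 10 passed the filter on low counts. They were chosen by name with the counts, CPM and heavy-over-light ratios of the same libraries already known, so their levels, ratios and adjusted p-values describe these libraries and are not independent evidence of a direction. Each liver gave a heavy and a light polysome pool, 12 libraries in all. The livers came from 1 eIF4E S209A/S209A mouse on chow, 2 wild-type mice given a ketogenic diet for 24 h (keto 1 and 2) and 3 wild-type mice on chow (chow 1, 2 and 3), which are the chow livers of the comparisons. The sample titles of chow 3 and S209A say fed, where those of chow 1 and 2 say chow. All were male C57BL/6 mice, and no age was used here. S209A replaces the serine of the cap-binding factor eIF4E that MNK kinases phosphorylate, and that genotype has a single animal. Sucrose gradient fractions were combined into the 2 pools, and the labels do not say which fractions form the heavy one.

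A selenoprotein carries selenocysteine, which is inserted at a UGA codon that elsewhere ends translation. Insertion needs a hairpin in the 3′ untranslated region, the SECIS element, with its binding protein Secisbp2, the elongation factor Eefsec and a dedicated tRNA. The liver makes selenoprotein P and secretes it as the selenium carrier of plasma, and when selenium is short the mRNAs of some family members, Gpx1 among them, are lost before those of others.

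Library totals ran from 3341046 to 13263355 counts, but protein-coding genes took only 4.09% to 6.61% of the counts in keto libraries, 6.53% to 22.2% in chow 1 and 2, 29.7% and 39.3% in chow 3, and 29.6% and 38% in S209A. Levels are given as CPM, counts scaled to the TMM-adjusted library size, and are set only against the same gene in other libraries, since no transcript lengths were used. Per the file headers, the keto tables name no aligner, chow 1 and 2 name Bowtie2, and chow 3 and S209A name HISAT2. Diet and processing can therefore not be told apart in any comparison of keto with chow, and this holds for each one below. The summed CPM of 6 hepatocyte genes lay between 4340 and 5120 in keto heavy pools and between 6690 and 11600 in chow heavy pools. In the light pools it lay between 5170 and 5430 in keto livers and between 3810 and 7640 in chow livers, so the liver label held. Kupffer cell, endothelial and stellate cell markers were present in every group. Of the erythroid genes (5 of 6 matched an ID), the summed CPM was 36.5 to 93.6 in keto and 6.85 to 16.4 in chow light pools; the part of this in the light-pool results was not tested. Hba-a2, an alpha globin gene, was the 1 marker that passed edgeR's test, lower in the heavy than in the light pools of keto livers (log2 -2.71 ± 0.65, edgeR adjusted p = 0.0218). In bulk RNA, fewer cells of a type and less RNA per cell cannot be told apart.

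The stretches upstream of Selenop, Selenot and Dio1 are shown because Selenop and Selenot lay above every chow library in both pools under the ketogenic diet, and Dio1 had the largest positive light-pool difference of the 10; they were chosen after these values were seen. Each is the 250 bases before the annotated start, from RefSeq on GRCm38.p6, written 5′ to 3′ on the gene's strand, with a TATA box match in capitals. Selenop lies on chromosome 15 (chr15:3270517-3270766, plus strand), Selenot on chromosome 3 (chr3:58576386-58576635, plus strand) and Dio1 on chromosome 4 (chr4:107307169-107307418, minus strand).
Selenop: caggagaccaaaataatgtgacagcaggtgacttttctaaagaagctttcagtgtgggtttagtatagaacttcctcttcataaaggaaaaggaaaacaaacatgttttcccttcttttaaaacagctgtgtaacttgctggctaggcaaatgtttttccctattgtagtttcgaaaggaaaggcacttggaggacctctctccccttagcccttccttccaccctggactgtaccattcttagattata
Selenot: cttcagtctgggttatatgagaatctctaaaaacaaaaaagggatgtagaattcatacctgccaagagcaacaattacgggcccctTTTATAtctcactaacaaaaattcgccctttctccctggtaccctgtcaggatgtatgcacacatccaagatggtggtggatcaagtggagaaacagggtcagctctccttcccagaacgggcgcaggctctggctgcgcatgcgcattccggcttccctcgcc
Dio1: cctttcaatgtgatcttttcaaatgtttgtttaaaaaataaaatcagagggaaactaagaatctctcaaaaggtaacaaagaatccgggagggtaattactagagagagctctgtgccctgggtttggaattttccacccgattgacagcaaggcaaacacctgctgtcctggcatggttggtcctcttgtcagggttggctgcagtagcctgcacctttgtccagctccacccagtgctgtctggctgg

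The GC content of these windows was 40.8% for Selenop, 49.6% for Selenot and 46.8% for Dio1. Of 7 motifs searched on both strands, Selenot held TATAAA on the minus strand, 164 to 159 bases before the start, and Selenop and Dio1 held none. TATAAA was found in 12.4% of the 17492 protein-coding promoters of the same length, and among the 10 genes in Selenot and Sephs2. TGACNNNGC, the core of the antioxidant response element, was found in Selenok alone (10.5% of promoters), where it overlapped one of the GC boxes GGGCGG that Selenok and Selenos held (42.6%). CCAAT was found in Gpx4, Selenos and Sephs2 (36.4%), the E-box CACGTG in Selenos and Sephs2 (6.65%), and the nuclear receptor half-site AGGTCA in Selenos (12.6%). TGTTTAC, the forkhead core, was in none of the 10 (2.57%). A match says only that the letters are there.

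**Figure D1:**
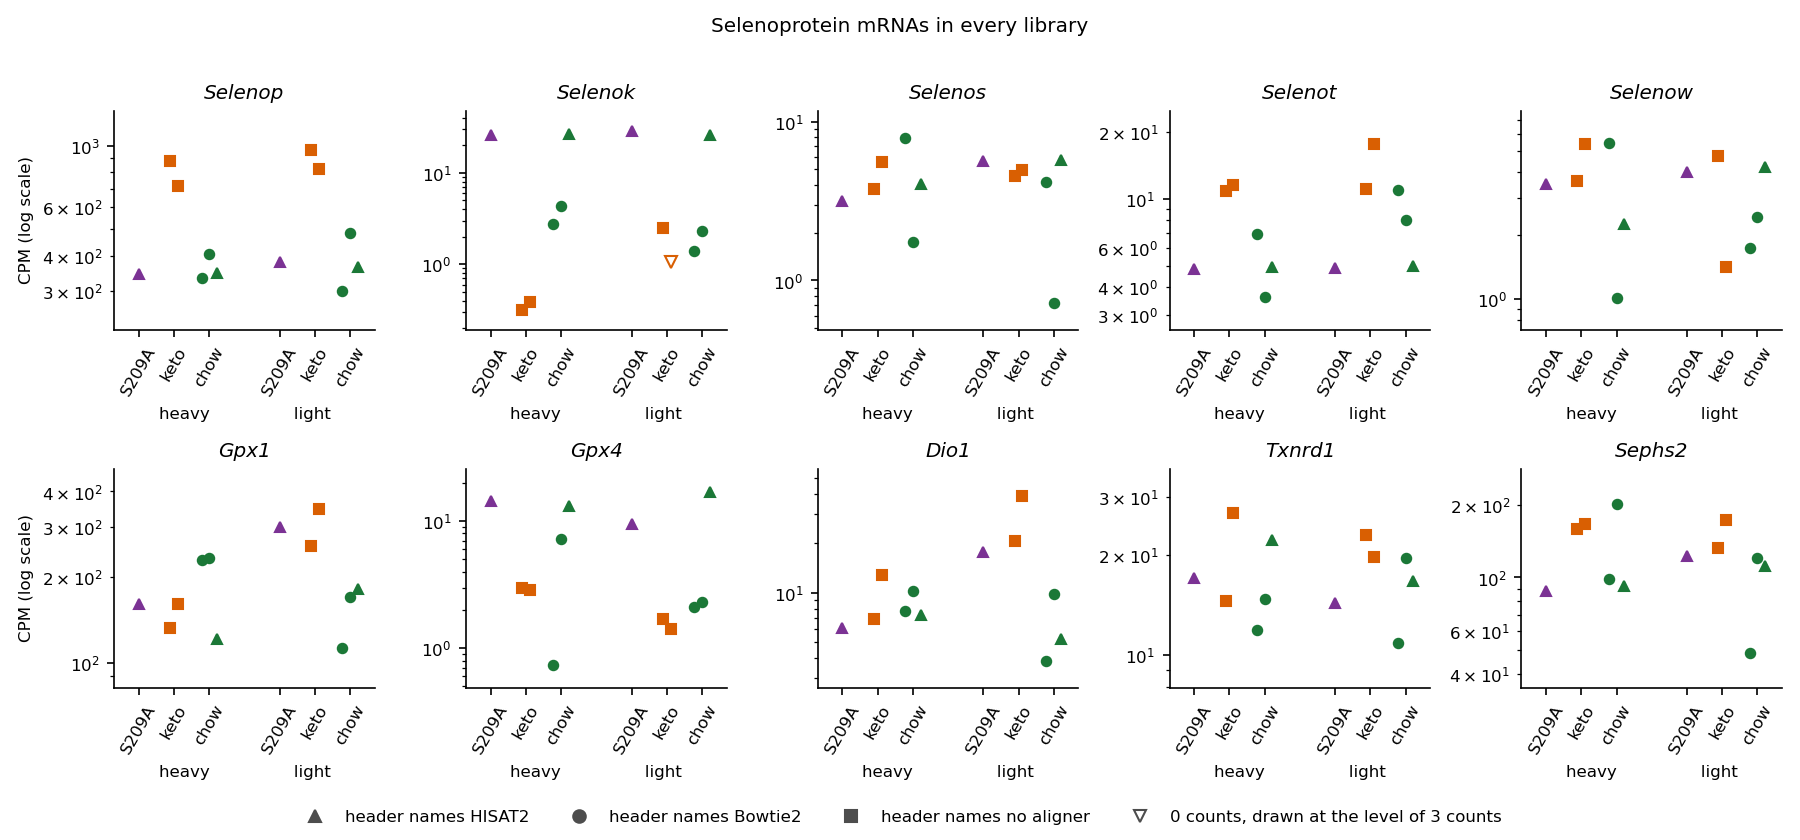
Level of each of the 10 selenoprotein mRNAs in the 12 libraries (y axis, CPM on a log scale; x axis, S209A, keto and chow in the heavy and then the light pool; point shape gives the aligner named in the file header). The keto points of Selenop lie at 716 CPM or more and all its other points at 484 CPM or less, while Selenok and Gpx4 are highest in S209A and chow 3.

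Selenop levels in keto livers lay above all chow levels in both pools. Selenop had 879 and 716 CPM in keto heavy pools, against 334, 408 and 349 CPM in chow heavy pools. In the light pools it had 964 and 823 CPM in keto and 300, 484 and 367 CPM in chow livers. Every keto value lay above every chow value in its pool. The fitted log2 difference was 1.13 ± 0.58 (SE; n = 2 keto and 3 chow) in the heavy pool and 1.22 ± 0.71 in the light pool, a fold of 2.19 and of 2.33, and it did not pass the test (edgeR adjusted p = 0.643 and 0.797). As a share of protein-coding counts, Selenop made up 0.755% and 0.675% in keto and 0.216%, 0.245% and 0.27% in chow heavy pools, and 0.797% and 0.653% in keto and 0.295%, 0.392% and 0.292% in chow light pools. Without any TMM scaling the sign turned, to a log2 of -0.44 in the heavy and -0.48 in the light pool, but there the median of all genes stood at -1.60 and -1.82, so Selenop still lay above that median.

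Selenot, a thioredoxin-like selenoprotein of the endoplasmic reticulum, showed the same separation at a lower level. It had 10.8 and 11.6 CPM in keto and 6.94, 3.62 and 4.95 CPM in chow heavy pools. In the light pools the values were 11.04 and 17.65 CPM in keto and 11.0, 8.03 and 4.98 CPM in chow livers, so that keto 1 and chow 1 all but touched. Its log2 difference was 1.12 ± 0.57 in the heavy pool (edgeR adjusted p = 0.635) and 0.84 ± 0.53 in the light pool (edgeR adjusted p = 0.808). With library size alone its sign turned as well, to -0.40 and -0.65, which lay above the medians of all genes.

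In the heavy pool, 2 of the 10 genes lay above every chow library in both keto livers, where 14.5% of all genes did. There, 1 of 10, Selenok, lay below every chow library (13.4% of all genes). In the light pool 6 of 10 lay above every chow library, against 11.2% of all genes: Selenop, Selenot, Gpx1, Dio1, Txnrd1 and Sephs2. Of these, Selenot (11.04 against 11.0 CPM) and Txnrd1 (19.77 against 19.66 CPM) all but touched the highest chow library. Gpx4 alone lay below (14.7% of all genes). None of the 10 passed edgeR's test in either pool (0% of 10552 genes passed in the heavy and 0% of 10551 in the light pool). At an unadjusted p under 0.05 there were 1 of 10 in the heavy pool (8.17% of all genes) and 2 of 10 in the light pool (6.09%). The median log2 difference over the 10 was 0.27 in the heavy pool, with -0.04 over all genes, and 0.58 in the light pool, with -0.13 over all genes. The heavy-pool median turned to -0.21 without keto 2, and with library size alone the medians were -1.30 in the heavy and -1.29 in the light pool, beside -1.60 and -1.82 over all genes. The 7 further selenoprotein genes that were tested, described below, had a median of 0.21 in the heavy and -0.33 in the light pool.

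**Figure D2:**
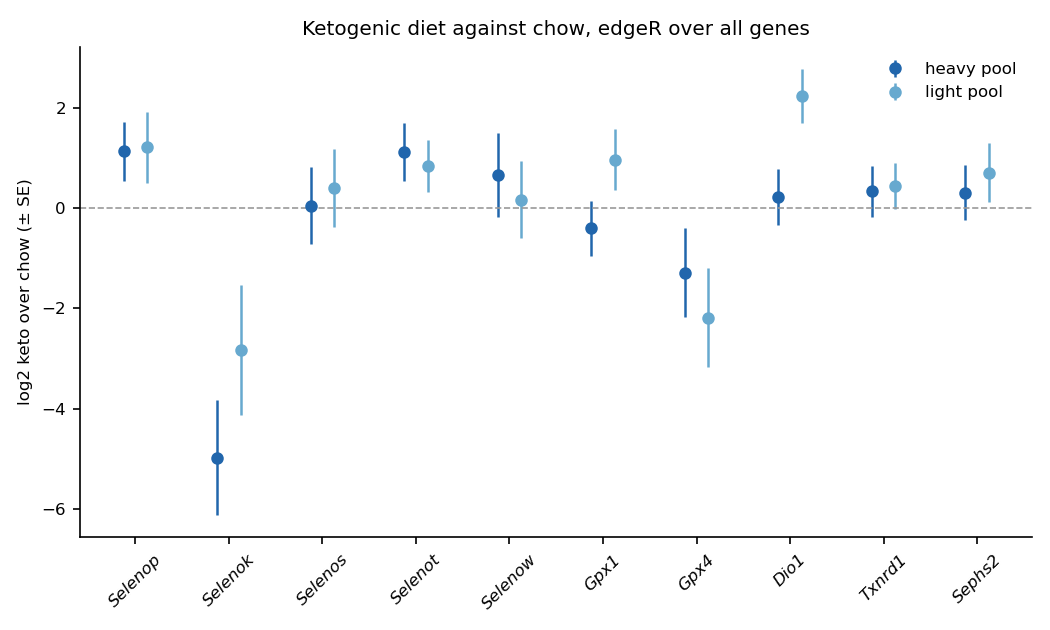
Fitted log2 difference of keto over chow for the 10 selenoprotein mRNAs (y axis) in the heavy and light pools, from edgeR over all genes; bars are standard errors, n = 2 keto and 3 chow livers per pool. Selenop lies above 0 in both pools, Dio1 is at 0.22 in the heavy and 2.23 in the light pool, and Selenok and Gpx4 lie below 0 in both.

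Dio1 encodes the type 1 deiodinase, which turns thyroxine into triiodothyronine in liver. In the light pools Dio1 had 20.6 and 38.8 CPM in keto livers, against 3.84, 9.76 and 5.22 CPM in chow livers. Its heavy pools held 6.91 and 12.7 CPM in keto and 7.69, 10.3 and 7.28 CPM in chow livers. The diets separated in the light pool and overlapped in the heavy pool. The light-pool log2 difference was 2.23 ± 0.54, a fold of 4.7 (edgeR adjusted p = 0.788), and the heavy-pool one 0.22 ± 0.56 (edgeR adjusted p = 0.955). When every gene with at least 1 count was tested, Dio1 passed in the light pool (edgeR adjusted p = 0.0262; 0.276% of all genes passed).

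Gpx1, the cytosolic glutathione peroxidase that reduces hydrogen peroxide, followed Dio1 in the light pool. It had 258 and 349 CPM in keto and 113, 171 and 181 CPM in chow light pools, a log2 difference of 0.97 ± 0.61 (edgeR adjusted p = 0.81). In the heavy pool Gpx1 had 132 and 161 CPM in keto and 229, 233 and 121 CPM in chow livers, where chow 3 was the lowest of the 5.

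Gpx4 reduces lipid hydroperoxides in membranes. It had 2.98 and 2.89 CPM in keto and 0.744, 7.24 and 13.1 CPM in chow heavy pools, so the diets overlapped. In the light pools it had 1.71 and 1.41 CPM in keto and 2.1, 2.3 and 16.9 CPM in chow livers, and the log2 difference was -2.18 ± 0.99 (edgeR adjusted p = 0.788). The chow mean rested on chow 3: without it, the keto mean was 0.712 of the chow light mean and 0.736 of the chow heavy mean.

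Selenok, a small membrane protein of the endoplasmic reticulum, had the widest range of the 10. Its counts were 2 and 2 in keto heavy pools and 11, 30 and 365 in chow heavy pools, that is 0.314 and 0.386 CPM in keto and 2.73, 4.34 and 26.6 CPM in chow livers. In the light pools the counts were 13 and 0 in keto and 8, 16 and 336 in chow livers. The diets did not overlap in the heavy pool and overlapped in the light pool. In the heavy pool edgeR gave a log2 difference of -4.98 ± 1.15 (adjusted p = 0.407), which rests on 4 keto counts in all. Over 16 alternatives it stayed between -6.87 and -3.25 and passed in 4, with adjusted p-values between 1.41e-05 and 0.0411. These were DESeq2 (4% of genes passed), the test of every gene with at least 1 count (0.758%), library size alone (3.64%) and the title wording as a batch (1.19%). With S209A a group of its own, that batch term took up chow 3 alone. Its log2 of -3.31 thus sets keto against chow 1 and 2.

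Txnrd1, the cytosolic thioredoxin reductase, had 23 and 19.8 CPM in keto and 10.8, 19.7 and 16.7 CPM in chow light pools, where keto 2 and chow 2 all but touched. Its heavy pools held 14.6 and 26.8 CPM in keto and 11.9, 14.8 and 22.3 CPM in chow livers. Sephs2, the selenophosphate synthetase that makes the selenium donor and is itself a selenoprotein, had 133 and 173 CPM in keto and 48.9, 120 and 111 CPM in chow light pools. In the heavy pools it had 159 and 166 CPM in keto and 98.9, 201 and 92.3 CPM in chow livers, which overlapped. Selenos, a partner of the degradation machinery of the endoplasmic reticulum, and Selenow, a small thioredoxin-like protein, stayed below 8 CPM in every library and overlapped between the diets in both pools.

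The heavy-over-light ratio of CPM in each animal gives the standing of an mRNA in the heavy pool against that in the light pool, relative to the other mRNAs, since each pool was scaled by TMM. A ratio of 1 is therefore no even split over the gradient. In chow livers the direction was not the same from animal to animal: 8 of the 10 lay above 1 in chow 1, 6 in chow 2 and 3 in chow 3, with medians of 1.92, 1.21 and 0.889 beside all-gene medians of 0.957, 0.944 and 0.997. Over all genes 46.2%, 45.9% and 48.5% lay above 1 there. In keto livers 2 of 10 lay above 1 in keto 1 (48.8% of all genes) and 4 of 9 in keto 2 (50.8%), with medians of 0.792 and 0.96 beside all-gene medians of 1.0 and 1.02. In S209A 2 of 10 lay above 1 (49.8% of all genes), with a median of 0.89 beside 1.0. The chow livers whose headers name Bowtie2 were thus the high ones, and the part of the aligner in this was not tested.

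Selenop stayed within 0.843 and 1.11 in every animal. Its ratio was 0.902 in S209A, 0.912 and 0.87 in keto and 1.11, 0.843 and 0.95 in chow livers. The fitted log2 of heavy over light was -0.17 ± 0.48 in keto and -0.06 ± 0.39 in chow livers. With 1349 to 5601 counts per library, the counting interval of each ratio was narrow, such as 0.878 to 0.948 in keto 1, and in each of the 6 animals it left out 1. With library size alone the log2 in keto livers turned to 0.14.

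Dio1 lay on opposite sides of 1 in keto and in wild-type chow livers, while the S209A liver on chow lay with keto. The ratio was 0.336 and 0.328 in keto livers (exact 95% counting intervals 0.231 to 0.481 and 0.238 to 0.449), against 2, 1.05 and 1.39 in chow livers (1.12 to 3.63, 0.745 to 1.49 and 1.01 to 1.93). Both keto livers lay below 1 and all 3 wild-type chow livers above it. The keto minus chow difference of log2 heavy over light was -2.08 ± 0.70 (edgeR adjusted p = 0.431), from -1.59 ± 0.54 in keto and 0.49 ± 0.44 in chow livers. It stayed between -2.28 and -1.87 in 16 alternatives. In the S209A liver, which was on chow, the ratio was 0.345 (0.25 to 0.471), with 59 heavy and 137 light counts.

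Gpx1 had ratios of 0.511 and 0.463 in keto livers, against 2.04, 1.36 and 0.667 in chow livers, and of 0.534 in S209A. Chow 3 lay nearer to the keto livers than to chow 1. The keto minus chow difference of log2 heavy over light was -1.34 ± 0.59 (edgeR adjusted p = 0.753). With the wording of the sample titles, which sets chow 3 and S209A apart, as a batch, Gpx1 passed (edgeR adjusted p = 0.00829, 2.16% of all genes passed). It also passed without chow 3 (2.08% of all genes). Since S209A is a group of its own, the batch term took up chow 3 alone. Both settings thus took the chow ratio from chow 1 and 2 only and are not separate support (log2 -1.775 and -1.743).

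Ratios of Gpx1 and Dio1 were lower in both keto livers than in every wild-type chow liver, which is 2 of 9 genes with a ratio in all 5 animals, where 11.9% of 6977 genes did so. Hepatocyte and erythroid markers moved with them: the keto minus chow difference of log2 heavy over light was below 0 for 6 of 6 hepatocyte genes (median -1.27, with Ttr at -1.40 and Apoa2 at -1.34) and for 4 of 4 erythroid genes tested (median -1.34, with Hba-a2 at -2.09), beside 0.15 over all genes. It was below 0 for 7 of 8 stellate (median -0.82), 6 of 9 Kupffer (-0.26), 5 of 9 sinusoidal endothelial (-0.08) and 1 of 2 cholangiocyte genes (-0.97). None of these markers passed edgeR's test for the difference, and their part in the values of Gpx1 and Dio1 was not tested. None of the 10 passed edgeR's test for heavy over light in keto livers (0.18% of all genes did), in chow livers (0.199%) or for the difference (0.189%). At an unadjusted p under 0.05 there were 2 of 10 in keto livers (4.26% of all genes), 0 in chow livers (6.97%) and 3 for the difference (6.01%). By limma-voom 0 of the 10 passed in each of the 3, where 0.0663% of all genes passed in keto livers, 0.303% in chow livers and 0.18% for the difference. By DESeq2 it was likewise 0, although several of the 10 had no adjusted p there (0%, 18.4% and 1.04% of the genes with one).

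Sephs2 had ratios of 1.2 and 0.96 in keto and 2.02, 1.68 and 0.829 in chow livers, and of 0.718 in S209A, so chow 3 and S209A were again below 1. Selenot was below 1 in each animal, at 0.99 in S209A, 0.981 and 0.655 in keto and 0.631, 0.45 and 0.993 in chow livers. Gpx4 (0.355 to 3.15), Selenow (0.415 to 3.82) and Selenos (0.564 to 2.42) had wide ranges on few counts. Txnrd1 lay between 0.634 and 1.36. Selenok had no ratio in keto 2, where the light pool held 0 counts, which allows up to 1.06 CPM at 3 counts. Its ratio was 0.127 in keto 1, on 2 heavy and 13 light counts, 1.95, 1.89 and 1.02 in chow livers and 0.903 in S209A. The keto minus chow difference of log2 heavy over light was -2.24 ± 1.10 for Selenok (edgeR adjusted p = 0.817), and it turned to 4.08 without keto 1.

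**Figure D3:**
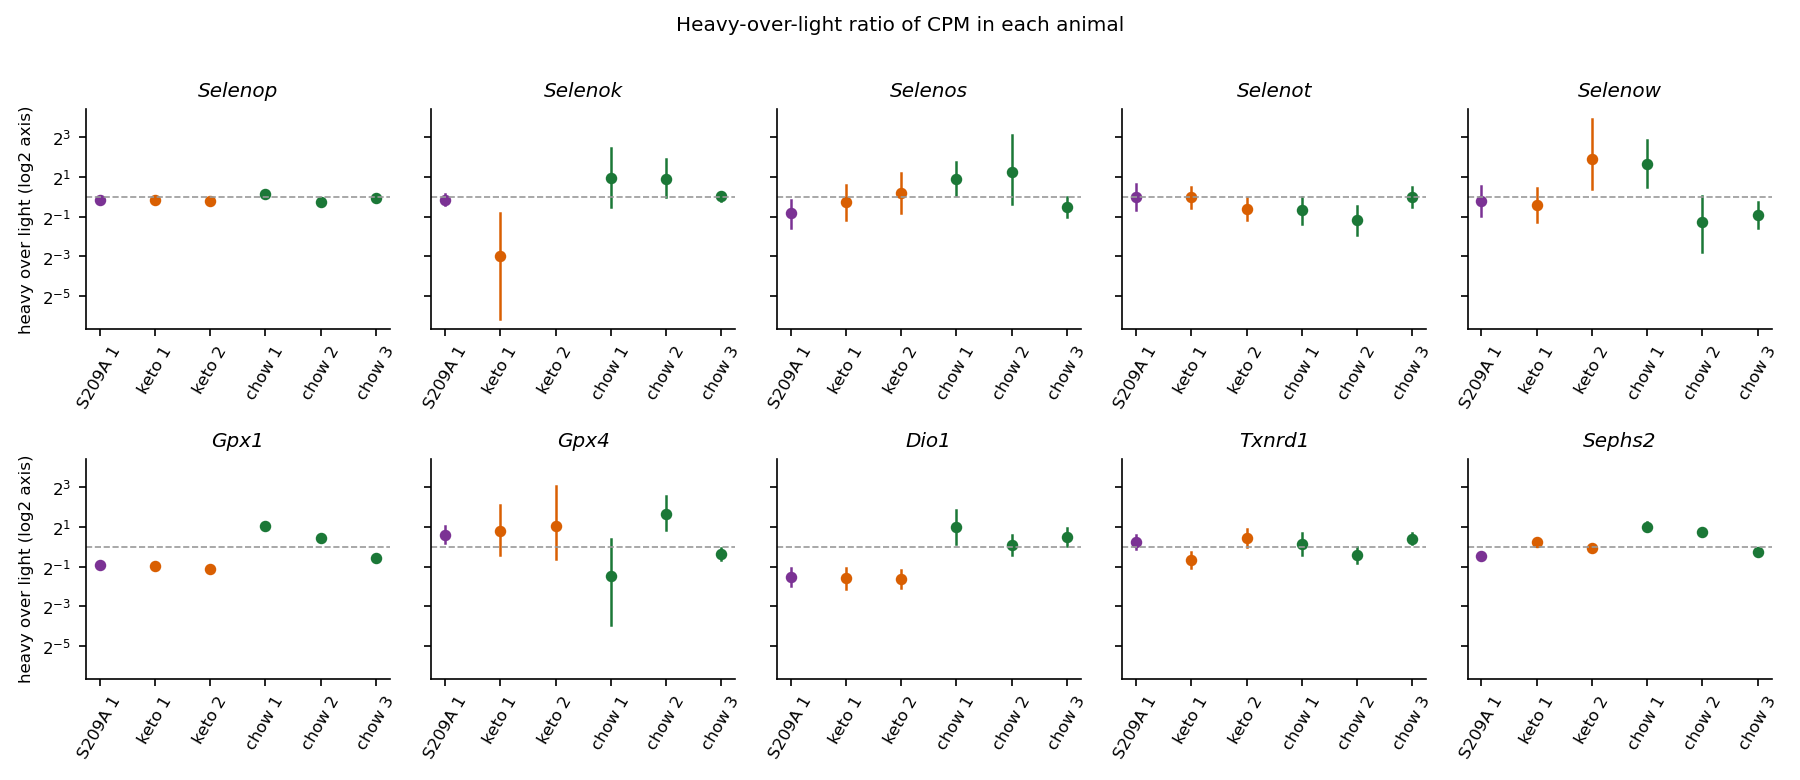
Heavy-over-light ratio of CPM for each selenoprotein mRNA in each animal (y axis, log2-spaced; the dashed line is 1; bars are exact 95% counting intervals, covering counting error only). Dio1 lies at 0.328 to 0.345 in S209A and keto livers and at 1.05 to 2 in chow livers, while Selenop stays between 0.843 and 1.11.

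The 3 chow livers share diet, genotype and sex, and set against each other they show what else separates the libraries. The title of chow 3 says fed and those of chow 1 and 2 say chow, and the titles do not say whether this marks another feeding state. Selenok in chow 3 was 7.52 times the mean of chow 1 and 2 in the heavy pool and 14.2 times in the light pool. Gpx4 was at 3.28 and 7.7 times that mean. Selenop, at 0.94 and 0.937, and Dio1, at 0.811 and 0.767, differed little. Selenos was at 0.843 in the heavy and 2.35 in the light pool, Selenow at 0.698 and 2.01, and Gpx1 at 0.523 and 1.28. Sephs2 was at 0.615 and 1.32, and Txnrd1 at 1.67 and 1.1. Chow 3 lay over 4-fold above both chow 1 and chow 2 for 6.05% of protein-coding genes in the heavy and 3.25% in the light pool. This display was chosen after the values were seen.

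RefSeq names 8 pseudogenes after Selenok, 2 after Gpx4, 1 after Selenot and 0 after the other 7. Over 9512 protein-coding genes the median of the same ratio was 1.03 in the heavy pool, and over the 260 of them with a pseudogene named so it was 1.76. In the light pool the medians were 0.981 over 9762 genes and 1.81 over 271. Selenot, which has such a pseudogene, had ratios of 0.937 and 0.524. The counts of Selenok-ps1 were 10 in the keto 1 heavy pool, 48 in the chow 1 heavy pool, 1 and 2 in the chow 2 heavy and light pools, and 0 in the other 8 libraries. How reads shared between a gene and its copies were counted is not given in the sources used here, and the part of such reads in the levels of Selenok, Gpx4 and Selenot was not tested. The levels of these 3 genes are uncertain to that extent.

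**Figure D4:**
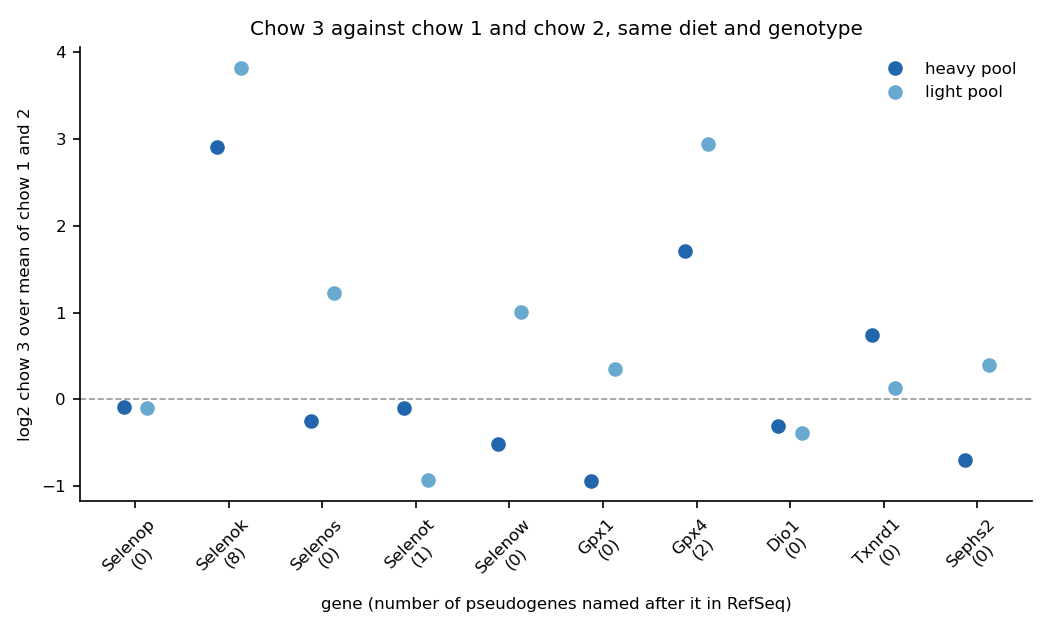
Level in chow 3 over the mean of chow 1 and chow 2 for each selenoprotein mRNA (y axis, log2; heavy and light pools), with the number of pseudogenes RefSeq names after each gene in brackets on the x axis. Selenok and Gpx4 stand at 1.71 or more in both pools, and Selenop and Dio1 lie just below 0. Selenos and Selenow reach 1.23 and 1.01 in the light pool, and Gpx1 lies at -0.94 in the heavy pool.

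Against chow 1 and 2 alone, whose titles share their wording with the keto animals, the keto mean of Selenop was 2.15 times as high in the heavy and 2.28 times in the light pool. Selenot came to 2.12 and 1.51, Dio1 to 1.09 and 4.37, and Gpx1 to 0.635 and 2.14. Selenok was at 0.099 in the heavy pool and 0.67 in the light pool.

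The S209A liver was set against chow 3, which shares its header and title wording, as a description of 1 animal each with no test. Of the 10 mRNAs, 0 differed by over 2-fold in the heavy pool, where 24.2% of genes did, and 1 in the light pool, where 30.5% did. That one was Dio1, with 17.6 CPM in S209A and 5.22 CPM in chow 3, a fold of 3.37, and with 2.8 over the mean of all 3 chow livers. Selenop had 344 CPM in the S209A and 349 CPM in the chow 3 heavy pool, and 382 CPM in the S209A and 367 CPM in the chow 3 light pool. In the heavy pools Selenok had 26.1 CPM in S209A and 26.6 CPM in chow 3, and Gpx4 had 14.4 CPM in S209A and 13.1 CPM in chow 3. Light pools held 28.9 CPM of Selenok in S209A and 26.2 CPM in chow 3, while Gpx4 had 9.5 CPM in S209A and 16.9 CPM in chow 3, a ratio of 0.562. Gpx1 had 300.4 CPM in S209A, against 181 CPM in chow 3, in the light pools. Set against the mean of all chow livers, 2 of the 10 passed 2-fold in each pool (25.8% of genes in the heavy and 35.1% in the light pool). These were Selenok (2.33) and Gpx4 (2.05) in the heavy pool, and Selenok (2.9) and Dio1 (2.8) in the light pool. Against chow 3 alone Selenok was at 0.982 in the heavy and 1.1 in the light pool, and Gpx4 at 1.1 in the heavy pool.

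Of the other 14 mouse selenoprotein genes, 7 passed the filter on low counts, and Dio2, Dio3, Gpx2 and Selenov had 0 counts in every library. None of the 7 passed edgeR's test in any of the 5 comparisons. In the light pool 5 of the 7 had a log2 difference of keto over chow below 0, where 44.0% of all genes lay above 0. Their median was -0.33, beside -0.13 over all genes and 0.58 over the 10. Selenof binds a glycoprotein folding sensor in the endoplasmic reticulum. It had 6.85 and 12 CPM in keto and 2.79, 2.87 and 3.89 CPM in chow light pools (log2 1.54 ± 0.57, edgeR adjusted p = 0.788). These did not overlap, where 11.2% of all genes lay above every chow light library. Txnrd2, the mitochondrial thioredoxin reductase, had 1.26 and 0.771 CPM in keto and 3.72, 11.3 and 3.2 CPM in chow heavy pools (log2 -2.55 ± 0.90, edgeR adjusted p = 0.512). These did not overlap either, where 13.4% of all genes lay below every chow heavy library. Txnrd3, the testis-enriched reductase, had 0 and 2 counts in keto and 6, 26 and 24 in chow heavy pools, and 0 and 0 in keto and 9, 22 and 24 in chow light pools. Its diets overlapped in neither pool, where 14.7% of all genes lay below every chow light library. Msrb1, a methionine sulfoxide reductase, had log2 differences of -0.34 ± 0.53 in the heavy and -0.33 ± 0.56 in the light pool, and Selenoo of 0.26 ± 0.57 and -0.03 ± 0.53. Selenoi had 1.06 ± 1.01 and 0.52 ± 1.16, and Gpx3, with 46 counts over the 12 libraries, gave no usable difference. Narrow gaps set the diets apart in the heavy pool for Msrb1 (keto at most 10.05 CPM, chow at least 10.28). The same held for Selenoi there (keto at least 2.198 CPM, chow at most 2.171).

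All 13 genes of selenocysteine synthesis and insertion passed the filter on low counts, and 0 of 13 passed the test in any comparison. Their median log2 difference of keto over chow was -0.16 in the heavy and -0.45 in the light pool, beside -0.04 and -0.13 over all genes. In the heavy pool Secisbp2l, a paralog of the SECIS-binding protein, was the highest at 0.90 ± 0.52 (edgeR adjusted p = 0.689). Eif4a3, an exon junction helicase that represses SECIS use, was the lowest, with 2 and 0 counts in keto and 10, 8 and 72 in chow heavy pools. In the light pool Sephs1 was the highest at 0.94 ± 0.70 (edgeR adjusted p = 0.828), and Pstk, the kinase of seryl-tRNA, had 0 counts in both keto and 2, 4 and 14 counts in chow light pools.

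Among cysteine homologs of selenoproteins 3 of 7 genes were tested, and both selenium-binding proteins were, and none passed in any comparison. Selenbp1 and Selenbp2, which bind selenium without selenocysteine, had log2 differences of -0.93 ± 0.51 (edgeR adjusted p = 0.668) and -2.40 ± 1.44 (edgeR adjusted p = 0.706) in the heavy pool. Msra, a methionine sulfoxide reductase, had -0.71 ± 0.51 in the heavy and 0.75 ± 0.51 in the light pool.

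The thioredoxin and glutathione system had 20 of 21 genes tested, the NRF2 targets 20 of 21, and the genes of degradation at the endoplasmic reticulum 21 of 21, and none of these passed in any comparison. Prdx1, a peroxiredoxin fed by thioredoxin, had 2.67 and 1.35 CPM in keto and 7.93, 9.55 and 43.6 CPM in chow heavy pools, with chow 3 the highest as for Selenok and Gpx4. Srxn1, the sulfiredoxin that repairs peroxiredoxins, had 7.54 and 15.6 CPM in keto and 0, 4.05 and 5.39 CPM in chow heavy pools (log2 1.81 ± 0.95, edgeR adjusted p = 0.646). Of the NRF2 targets, 15 of 20 had a log2 difference below 0 in the heavy pool (median -0.63, with -0.04 over all genes) and 12 of 20 in the light pool (median -0.21, with -0.13 over all genes). Cbr3, a carbonyl reductase, was the lowest in the heavy pool, with 0 and 0 counts in keto and 0, 8 and 4 in chow livers. Ftl1, the ferritin light chain, was the highest NRF2 target in the heavy pool at 2.09 ± 0.54 (edgeR adjusted p = 0.476), and Vcp, the segregase that Selenos recruits, the lowest degradation gene there at -1.40 ± 0.54 (edgeR adjusted p = 0.531).

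Of 13 thyroid hormone genes, 11 were tested for heavy over light in keto livers, and 1 passed in each direction, where 0.18% of all genes passed. Thrsp, a thyroid hormone-responsive lipogenic gene, was higher in heavy than in light pools of keto livers (log2 2.75 ± 0.66, edgeR adjusted p = 0.0258), with 65 and 60 heavy against 18 and 0 light counts. Slco1a1, an organic anion transporter that carries thyroid hormone, was lower in the heavy pools (log2 -2.17 ± 0.54, edgeR adjusted p = 0.0336), with 33 and 69 heavy against 320 and 66 light counts. The 2 keto livers thus differed widely for Slco1a1, and its standard error, taken from a spread shared over all genes, does not reflect this. By DESeq2 no gene passed in keto livers, these 2 included. In keto livers Slco1a1 lay on the side of Dio1, whose counts were 44 and 66 in heavy and 108 and 110 in light pools of the same livers. In chow livers Slco1a1 was also lower in the heavy pools (log2 -1.63 ± 0.42, edgeR adjusted p = 0.0502), while Dio1 was at 0.49 ± 0.44. Thrsp was also higher in the heavy pools of chow livers (log2 1.29 ± 0.44, edgeR adjusted p = 0.285). None of the 13 passed in keto against chow within a pool, where Klf9 was the highest light-pool gene at 1.33 ± 0.58 (edgeR adjusted p = 0.788) and Thra, a thyroid hormone receptor, the highest heavy-pool gene at 2.61 ± 0.91 (edgeR adjusted p = 0.512).

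Among 5152 named genes at or above the median level, those most like Selenop over the 12 libraries were Peli2, Ilrun and Hif1an (Pearson r of log2 CPM 0.951, 0.941 and 0.938). For Gpx4 they were Atad3a, Ap2m1 and Rsrc1 (0.965, 0.93 and 0.924), and for Selenok Hnrnpa2b1, G3bp1 and Rbm39 (0.966, 0.964 and 0.961). These correlations share the 12 libraries with their 6 animals, their depth and their 3 kinds of header, and are given as a description.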

How the data were processed

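RNA of a heavy and a light polysome pool from each of 6 livers was sequenced after 10 ng of total RNA entered a stranded total RNA kit, per the labels' protocols. The authors deposited, for each library, a table of raw counts by Entrez gene ID, and these were used unchanged. Tools listed in the submitters' processing notes are Trimmomatic, HISAT2 and StringTie, with build mm10; the file headers name Bowtie2 for chow 1 and 2, HISAT2 for chow 3 and S209A, and no aligner for keto 1 and 2. Counting tool, strand setting and treatment of multiple alignments: not given in the sources used here. A labelled time of 0 h was set aside, since the protocol gives 24 h on the diet. Symbols came from RefSeq on GRCm38.p6 (25275 of 27179 IDs matched).

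Genes were kept by filterByExpr at 10 counts grouped by condition (10555), a grouping taken after another had been run, and libraries were scaled by TMM (factors 0.325 to 3.12). Tests were edgeR 4.0.16 quasi-likelihood tests, two-sided, with Benjamini-Hochberg adjustment over all genes calling genes under 0.05. A single model of the 12 libraries, blocked on the animal, gave heavy against light, and separate fits per pool gave keto against chow. Errors are standard errors, the log2 value over the square root of F. The labels number the livers without saying more of their origin, so the spread between these samples may be technical. For heavy against light that spread was shared over all genes. Standard errors and p-values there do not measure a gene's own spread between livers. Gpx4, for example, had log2 ratios of -1.49, 1.66 and -0.37 in chow 1, 2 and 3, beside a standard error of 0.59. For keto against chow within a pool the spread was shared in part. The 2 pools of a liver are paired by their labels (r of deviations across genes 0.307, 0.305 and 0.463 in chow 1, 2 and 3). Counting intervals and floors of 3 counts cover counting error only. The code was tested on simulated data.

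The 10 genes and the other gene lists were chosen with earlier results of these data known. All 10, the other selenoproteins that passed the filter, every listed gene that passed the test, and otherwise list extremes were named; here extremes are given for keto against chow only, and not for every list. S209A was to be set against the chow mean; the comparison with chow 3 was added. DESeq2, limma-voom and other scalings, filters and left-out animals were the alternatives.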

Additional observations from a re-analysis of the deposited data

Results flagged for a closer look

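Dio1 had a heavy-over-light ratio below 1 in both keto livers (0.336 and 0.328) and above 1 in all 3 chow livers (2, 1.05 and 1.39). Every wild-type liver of one diet thus lay on the opposite side from every wild-type liver of the other. The 95% counting interval of chow 2, 0.745 to 1.49, held 1. Both keto ratios lay below every wild-type chow ratio in 11.9% of 6977 genes. The keto minus chow difference was -2.082 on the log2 scale, and the test of that difference did not pass (edgeR adjusted p = 0.431). The S209A liver, also on chow, lay on the side of the keto livers with a ratio of 0.345, and the chow 3 liver with the same header wording had 1.39. No group held enough animals for a check of single libraries that stand apart.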

How the results depend on the processing

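None of the 10 genes passed in any comparison as reported, and 5 settings changed that. Selenok passed in the heavy pool of keto against chow in 4 settings with 1 of the 10 called each: DESeq2 (adjusted p = 0.00332), every gene with at least 1 count (1.41e-05), library size alone (0.0411) and the title wording as a batch (0.0352). In the light pool 2 of the 10 passed when every gene with at least 1 count was tested, Selenok (edgeR adjusted p = 0.0236) and Dio1 (0.0262). Gpx1 passed for the keto minus chow difference of heavy over light, as 1 of the 10, with the title wording as a batch (edgeR adjusted p = 0.00829) and without chow 3 (0.0121). The batch term takes up chow 3 alone, since S209A is a group of its own, so these settings both rest on chow 1 and 2. Why the settings changed the calls was not tested. DESeq2 gave an adjusted p for 3 of the 10 genes for heavy over light in chow livers, 4 of 10 for the difference and 6 of 10 in the heavy pool.

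Counts of all genes called moved widely. For heavy over light in chow livers, 21 as reported became 1 with library size alone, 6 with protein-coding genes only, 11 with at least 1 count, 0 with a mean of at least 50 counts, 97 by DESeq2 and 32 by limma-voom. In keto livers 19 became 1, 2 and 0 under library size, protein-coding genes and the mean of 50, with 0 by DESeq2 and 7 by limma-voom. For the difference 20 became 0, 5 and 0 under the same 3 settings and 228 with the title wording as a batch. For keto against chow in the heavy pool 0 became 384 with library size alone, 112 with at least 1 count, 111 by DESeq2, 4 by limma-voom, 126 with the title wording as a batch and 6 with the filter grouped by condition and pool, which was chosen after seeing the data; in the light pool 0 became 41 with at least 1 count.

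The median log2 over the 10 moved by more than its spread between animals with library size alone, to 0.168 for heavy over light in keto livers (all genes 0.31), -1.301 in the heavy pool (-1.6) and -1.29 in the light pool (-1.817), with a mean of at least 50 counts to 0.475 in the heavy pool (8 genes), and with the title wording as a batch to 0.116 there. Leaving out 1 animal at a time gave medians of 0.107 to 0.426 in chow and -0.344 to 0.058 in keto livers, -0.478 to -0.081 for the difference, -0.21 to 0.479 in the heavy pool (negative without keto 2) and 0.46 to 0.743 in the light pool. Genes called then ran from 3 to 405 in chow livers, 0 to 33 in keto livers, 0 to 214 for the difference and 0 to 67 in the heavy pool, each of these maxima without chow 3, and stayed at 0 in the light pool; of the 10, 0 to 1 were called for the difference and 0 in the others.

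Without the replicate block on the animal, 0 genes were called for heavy over light in keto livers, in chow livers and for the difference, and 0 of the 10. Numbers shared by keto and chow livers do not pair them: chow 1 minus chow 2 correlated with keto 1 minus keto 2 at r = -0.0146 in the heavy and -0.0275 in the light pool. With the replicate block on those numbers, 88 genes were called in the heavy and 5 in the light pool, and 0 of the 10. Depth limits Selenok, Gpx4, Selenos and Selenow most, whose counts lay at 32 or below in most libraries.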
